A study of Mus musculus with 2 samples.

Results

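The 10 genes described here encode ligands, receptors, an inhibitor and a matrix protein of the Tgf-beta and activin branch of the Tgf-beta superfamily: Tgfb1, Tgfb2, Tgfb3, Inhba, Tgfbr1, Tgfbr2, Tgfbr3, Acvr2a, Fst and Tgfbi. They were taken by symbol from the 27998 genes shared by both count matrices, and each symbol occurred once. In this pathway a dimeric ligand binds a type II receptor kinase, which activates a type I receptor kinase, which phosphorylates Smad2 and Smad3. The Tgf-beta ligands, Tgfb1, Tgfb2 and Tgfb3, are secreted in a latent form and use the type II receptor Tgfbr2 and the type I receptor Tgfbr1, and Tgfbr3 (betaglycan) is a co-receptor that presents Tgfb2 in particular. Inhba encodes the subunit of activin A, whose type II receptors include Acvr2a, and Fst (follistatin) binds activin and blocks it. In the embryonic face this branch is known for roles in the palate, where Tgfb3 acts in the epithelial seam, and in tooth germs and whisker follicles, where Inhba is required.

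Single-cell RNA sequencing had been done on the lambdoid junction of E11.5 mouse embryos, the place where the upper lip forms as the nasal and maxillary prominences meet and fuse. One library came from wild-type embryos and 1 from Crect; ROSA26-lacZ embryos, which carry the ectodermal Cre transgene Crect and a lacZ reporter at the ROSA26 locus. Both are labelled C57BL/6J, and each pooled the junctions of 4 to 5 embryos, so embryos cannot be told apart within a library. With 1 library per genotype, a difference between genotypes has no replicate check and was not tested.

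After filtering, 7405 wild-type and 6318 Crect lacZ cells remained, with medians of 13822 and 17274.5 unique molecular identifiers (UMIs, each standing for 1 captured transcript) per cell. Mesenchyme held 5921 and 5253 of them, ectoderm 947 and 734, endothelium 207 and 118, erythroid cells 227 and 136, and macrophages 30 and 28. The libraries differed in makeup: a chondrogenic mesenchyme sub-cluster led by Sox9 and Flrt2 had 29 wild-type and 527 Crect lacZ cells. They shared 76 barcodes, and 57 and 207 barcodes were left out for mitochondrial UMIs. The classes were checked on their markers. The summed level of 8 ectoderm markers was 1407 and 1481 CPM in ectoderm against 27.9 and 37.2 in mesenchyme, and that of 6 endothelium markers was 2943 and 2809 in endothelium against 14.3 and 12.8 in mesenchyme. Haemoglobin and other erythroid transcripts were found in the mesenchyme, ectoderm, endothelium, macrophage, megakaryocyte and crest glia classes, at 3090 to 4321 CPM in the wild-type and 1405 to 2052 in the Crect lacZ library. Levels below are in CPM, the UMIs of a gene divided by all UMIs of the class in that library and scaled to the usual common total, wild-type first and Crect lacZ second, and intervals on them are exact Poisson intervals at 95% that cover counting error only.

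The upstream sequences of 3 ligand genes, Inhba, Tgfb2 and Tgfb1, are shown here. No upstream sequence was found for Fst, Tgfb3 or Tgfbr3. Within the ectoderm Inhba, Tgfb2 and Tgfb1 all peaked in the same small set of cells, and Tgfb1 was higher still in endothelium and macrophages. A tie between these sequences and the levels was not tested. Each is the run of 250 bases before the RefSeq start on build GRCm38.p6, 5′ to 3′ on the gene's strand. Capitals mark the letters TATAAA or, on the other strand, TTTATA.
Inhba, chr13:16011601-16011850, plus strand: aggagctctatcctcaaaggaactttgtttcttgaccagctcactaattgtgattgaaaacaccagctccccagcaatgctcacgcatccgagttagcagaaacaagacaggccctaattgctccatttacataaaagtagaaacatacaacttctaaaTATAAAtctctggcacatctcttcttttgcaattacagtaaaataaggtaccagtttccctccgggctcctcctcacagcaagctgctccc
Tgfb2, chr1:186705990-186706239, minus strand: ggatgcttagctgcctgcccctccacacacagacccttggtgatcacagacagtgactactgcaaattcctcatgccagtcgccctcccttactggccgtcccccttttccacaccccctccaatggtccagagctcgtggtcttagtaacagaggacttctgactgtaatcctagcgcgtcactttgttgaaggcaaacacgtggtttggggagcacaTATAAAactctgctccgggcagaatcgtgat
Tgfb1, chr7:25686752-25687001, plus strand: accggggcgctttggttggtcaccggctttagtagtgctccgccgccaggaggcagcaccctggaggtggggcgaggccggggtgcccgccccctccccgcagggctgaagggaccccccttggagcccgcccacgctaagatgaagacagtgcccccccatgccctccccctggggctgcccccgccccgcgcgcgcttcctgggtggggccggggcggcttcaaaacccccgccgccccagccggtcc
The TATAAA letters began 31 bases before the Tgfb2 start and 91 bases before the Inhba start. They were absent from the Tgfb1 window and from the windows of Acvr2a, Tgfbr1, Tgfbr2 and Tgfbi, and 12.4% of 32851 mouse windows of this length held them. G and C made up 43.2% of the Inhba window, 53.6% of the Tgfb2 window and 75.2% of the Tgfb1 window, beside a median of 52.4% over all windows. The letters CAGAC or GTCTG, the core that Smad3 and Smad4 bind, occurred in 42.2% of all windows. They began 221 and 204 bases before the Tgfb2 start and were not found in the Inhba or Tgfb1 window. TGACTCA or TGAGTCA, the letters bound by AP-1, were in none of the windows of these 7 genes and in 4.46% of all windows.

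Ectoderm and mesenchyme were compared first, as the 2 tissue layers that face each other at the junction. Tgfb1 and Acvr2a were higher in ectoderm, while Tgfb3, Tgfbr3 and Tgfbi were higher in mesenchyme. Tgfb2, Inhba, Fst, Tgfbr1 and Tgfbr2 were found in both layers and were not called. All 10 genes passed the filter on low counts, and 2 were called higher and 3 lower in ectoderm. A call needed a Benjamini-Hochberg adjusted p under 0.05 from edgeR's quasi-likelihood test and a fold of 2 or more, and 13.7% of the 15126 genes tested were called higher and 8.94% lower in ectoderm, 22.7% in all. The median log2 difference was -0.43 over the 10 genes and -0.03 over all genes tested.

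Among the ligands, Tgfb1 stood at 18.0 and 17.9 CPM in ectoderm and at 5.72 and 5.90 in mesenchyme. Its 2 ectoderm values were alike and both lay above the mesenchyme values, a 3.14-fold difference (95% interval 2.64 to 3.74, adjusted p = 1.74e-08). Tgfb3, the ligand of the palatal seam, was at 3.71 and 6.53 in ectoderm and 11 and 10.7 in mesenchyme, 2.14-fold lower in ectoderm (1.66 to 2.75, adjusted p = 7.26e-05). The wild-type ectoderm had the lower Tgfb3 level of the 2 libraries, and the groups did not overlap. Inhba was at 11.4 and 13.0 in ectoderm and 21.5 and 24.9 in mesenchyme, a difference of 1.86-fold that passed the p threshold (2.08e-06) but not the fold threshold. Tgfb2 was at 82.0 and 113 in ectoderm and 61.0 and 47.5 in mesenchyme, 1.82-fold apart (1.52 to 2.18), again under the fold threshold. Both libraries had more Tgfb2 in ectoderm, and its log2 difference was 0.42 in the wild-type library and 1.25 in the Crect lacZ library.

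Of the receptors, Acvr2a was at 28.7 and 32.0 in ectoderm against 10.9 and 8.27 in mesenchyme, 3.24-fold higher (2.74 to 3.83, adjusted p = 8.88e-09). The co-receptor Tgfbr3 was at 1.65 and 2.30 in ectoderm against 3.81 and 5.54, 2.32-fold lower (1.7 to 3.15, adjusted p = 0.000174). Without library as a term in the fit Tgfb3 and Tgfbr3 were not called (adjusted p = 0.0690 and 0.0722). Tgfbr1, the type I receptor of the Tgf-beta ligands, was at 52.2 and 55.6 in ectoderm and 48.8 and 53.6 in mesenchyme, and the interval of its fold ran from 0.963 to 1.19. Tgfbr2 was at 3.48 and 3.63 in ectoderm and 4.93 and 4.90 in mesenchyme, a difference of 1.36-fold (1.04 to 1.77) that stayed under the fold threshold. Tgfbi, a secreted matrix protein named for its induction by Tgf-beta, was at 4.78 and 2.74 in ectoderm and 17.9 and 25.4 in mesenchyme, 5.39-fold lower in ectoderm (3.97 to 7.32, adjusted p = 1.34e-07). The level of Tgfbi in mesenchyme was the highest of the 4 values in the Crect lacZ library and its level in ectoderm the lowest.

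Fst was the gene whose order of the layers differed between libraries. It was at 12.6 in wild-type ectoderm and 29.1 in wild-type mesenchyme, but at 31.3 in Crect lacZ ectoderm and 26.6 in Crect lacZ mesenchyme. The fitted difference was not called (1.33-fold, interval 0.985 to 1.80, adjusted p = 0.102). Without the ectoderm sub-cluster led by Cdkn2a and Gad2, described below, ectoderm stood at 11.2 and 17.0 for Fst, under mesenchyme in both libraries.

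**Figure D1:**
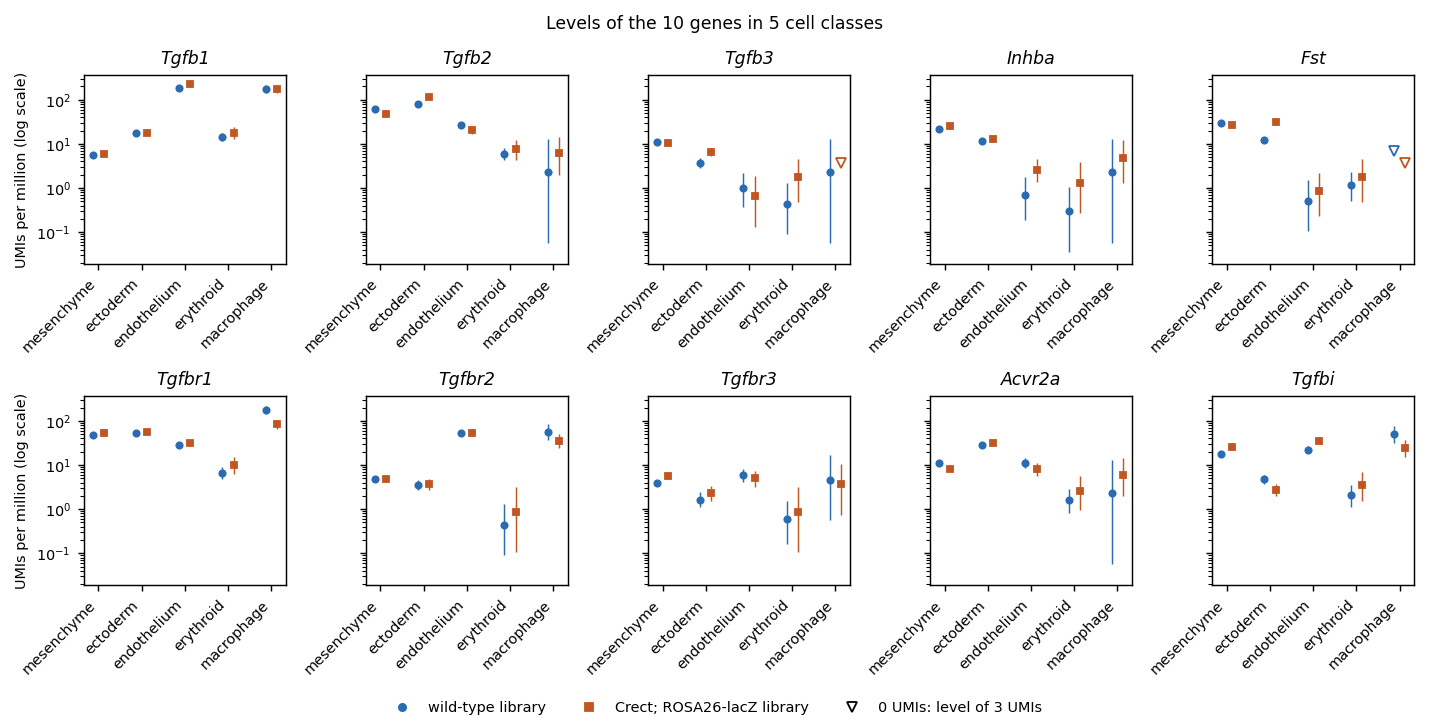
Each panel plots 1 gene's level in CPM (log axis) in mesenchyme, ectoderm, endothelium, erythroid cells and macrophages, with 95% Poisson bars, circles for the wild-type and squares for the Crect; ROSA26-lacZ library; open triangles mark 0 UMIs at the level that 3 UMIs would give. Tgfb1 is highest in endothelium and macrophages, at 173 to 224 CPM, and Fst and Inhba are low there, at 0 to 4.87 CPM.

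Of 45 other pathway genes that could be tested here, 6 were higher and 9 lower in ectoderm, with a median log2 difference of 0.03. None of 13 intracellular genes (Smads, their ubiquitin ligases and the Ski and Tgif repressors) was called, and their median was 0.05. Among 9 genes known to respond to Tgf-beta, Ctgf and Tagln were higher in ectoderm and Snai2, Col1a1, Fn1 and Postn lower. Tagln, a smooth muscle actin-binding protein, was at 25.6 and 55.6 in ectoderm against 2.24 and 2.11 in mesenchyme (18.0-fold, 13.7 to 23.8). It was the first leading gene of 1 ectoderm sub-cluster, named Cldn11/Mgp below. Only 7.62% and 7.66% of the ectoderm cells outside the Cdkn2a and Gad2 sub-cluster had a Tagln UMI. Col1a1, the fibrillar collagen chain, was 10.1-fold lower in ectoderm and the fibronectin gene Fn1 2.75-fold lower (2.46 to 3.09). Fstl1, a secreted glycoprotein of the follistatin family, was 3.00-fold lower (2.69 to 3.34), at 71.3 and 84.0 in ectoderm against 228 and 244.

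Endothelium had far more of the ligand Tgfb1 and of the type II receptor Tgfbr2 than mesenchyme, and far less Tgfb3, Inhba and Fst. These are 2 calls higher and 3 lower of 10 genes, where 12.7% of the 14462 genes tested were called higher and 16.3% lower, 29% in all. The median log2 difference was -0.18 over the 10 genes and -0.09 over all genes. Tgfb1 was at 183 and 224 CPM in endothelium against 5.72 and 5.90 in mesenchyme, a 39.7-fold difference in the fit (34.5 to 45.6). With 2.80% and 1.87% of the cells, endothelium held 52.2% of the wild-type and 51.2% of the Crect lacZ UMIs of Tgfb1. When each cell was thinned to 3000 UMIs, 37.7% and 39.8% of endothelial cells had a Tgfb1 UMI, against 1.62% and 2.08% of mesenchyme cells and 3.96% and 4.41% of erythroid cells. The medians before thinning were 23828 and 31499.5 UMIs in endothelial, 13321 and 17242 in mesenchyme and 29449 and 13545.5 in erythroid cells, and without thinning 92.3% and 97.5% of endothelial and 32.2% and 21.3% of erythroid cells had a Tgfb1 UMI.

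Tgfbr2, the receptor kinase that binds Tgf-beta ligands directly, was at 52.8 and 53.6 in endothelium against 4.93 and 4.90 in mesenchyme, 12.4-fold higher (10.3 to 14.7). Its levels were nearly equal between libraries in both classes. Tgfbr1 was lower in endothelium, at 29.0 and 32.2 against 48.8 and 53.6, but only 1.47-fold. Tgfb1 and Tgfbr2 were also high in macrophages. The 7 macrophage markers summed to 18.1 and 8.43 CPM in endothelium against 12469 and 7106 in macrophages, and the 5 megakaryocyte markers to 20.1 and 12.1 in endothelium against 3801 and 8563 in megakaryocytes.

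Fst had 3 and 4 UMIs in all endothelial cells, or 0.511 and 0.865 CPM against 29.1 and 26.6 in mesenchyme, 36.5-fold lower (24.9 to 53.5). With the doublets kept, that log2 difference shrank from -5.19 to -3.27 and stayed called. Inhba was at 0.681 and 2.59 in endothelium against 21.5 and 24.9, 13.2-fold lower (9.43 to 18.4), and Tgfb3 at 1.02 and 0.648 against 11 and 10.7, 11.1-fold lower (7.00 to 17.6). Tgfb2, at 26.6 and 21.0 against 61.0 and 47.5, was lower by 1.0 on the log2 scale, just inside the fold threshold, and was not called. Its call appeared when the mitochondrial limit was 5% (log2 -1.03) and with no filter on low counts (-1.05). Acvr2a was at 11.2 and 8.0 in endothelium against 10.9 and 8.27 in mesenchyme, a ratio whose interval ran from 0.892 to 1.47. Tgfbi was 1.48-fold apart, below the fold threshold, and Tgfbr3 was not called, at 5.79 and 4.97 in endothelium against 3.81 and 5.54. The spread in this fit and in that of the maxillary comparison was taken as 1 trend over all genes, so the adjusted p-values there do not measure how a single gene repeated between libraries, and the values of each library carry that.

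Of 44 listed genes tested, 8 were higher and 15 lower in endothelium, and their median log2 difference was -0.50. Eng (endoglin), the co-receptor mutated in hereditary haemorrhagic telangiectasia, was at 206 and 241 in endothelium against 2.43 and 2.72 in mesenchyme, 98.8-fold higher. Nrros, which tethers latent Tgfb1 on myeloid cells, was 44.5-fold higher, at 39.3 and 65.9 against 1.31 and 1.33, and Acvrl1, the endothelial type I receptor also called Alk1, was 9.81-fold higher. Col1a1 was 10.6-fold, Snai2 4.57-fold and the inhibitory Smad7 2.56-fold lower in endothelium.

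**Figure D2:**
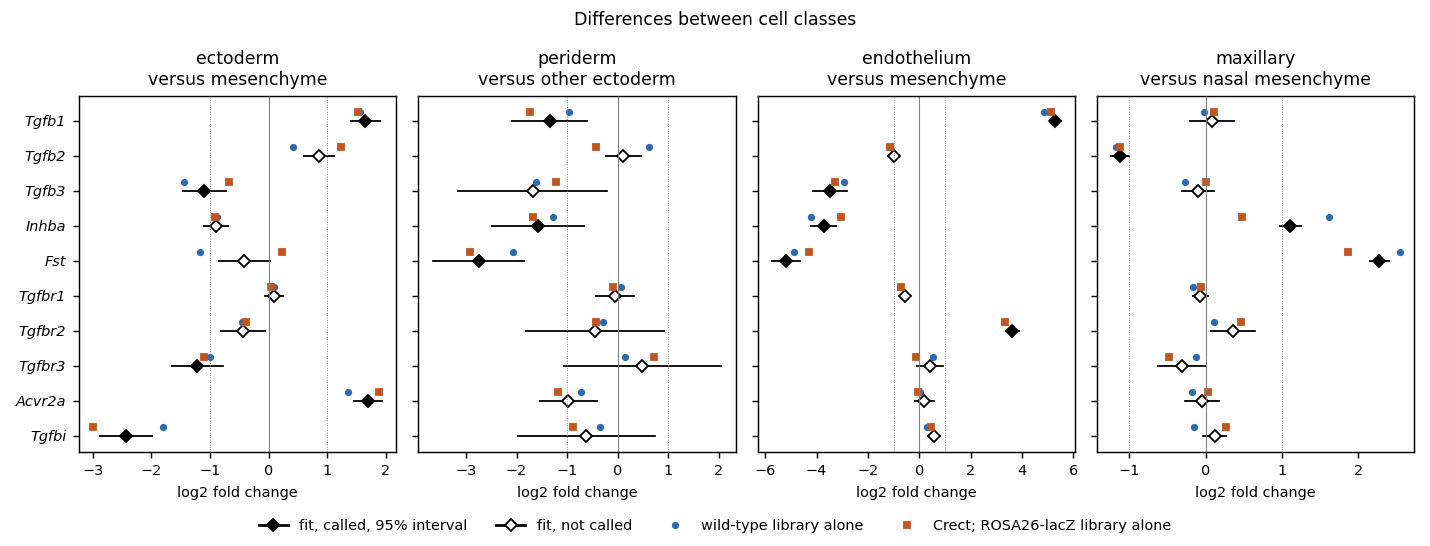
Each panel plots the log2 fold change of the 10 genes in 1 comparison, with black diamonds for the fit and its 95% interval (filled where called), blue circles for the wild-type and orange squares for the Crect; ROSA26-lacZ library alone, and dotted lines at 2-fold. Tgfb1 and Tgfbr2 lie far to the right in endothelium, and the libraries lie on opposite sides of 0 for Fst in ectoderm and Tgfb2 in periderm.

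Periderm, the flat outer layer of the embryonic ectoderm that is lost or remodelled where prominences fuse, had less Fst, Inhba and Tgfb1 than the other ectoderm and no gene of the 10 at a higher level by the call. It comprised 53 wild-type and 34 Crect lacZ cells, in which 8 periderm markers summed to 3659 and 3291 CPM against 567 and 479 in other ectoderm. All 10 genes were tested, and 3 were called lower, where 4.79% of 12144 genes tested were called lower and 5.88% higher, 10.7% in all. Their median log2 difference was -0.80, beside -0.02 over all genes. Fst was at 2.78 and 3.92 in periderm against 13.2 and 33.0, 6.73-fold lower (3.59 to 12.6, adjusted p = 6.89e-06). Inhba was at 4.64 and 3.92 against 11.9 and 13.5, 2.99-fold lower (1.60 to 5.6, adjusted p = 0.00928), and Tgfb1 at 9.27 and 5.22 against 18.6 and 18.6, 2.54-fold lower (1.52 to 4.24, adjusted p = 0.00645). Both libraries had the lower value in periderm for each of the 3 genes. These periderm levels rest on few UMIs: 3 and 3 for Fst, 5 and 3 for Inhba and 10 and 4 for Tgfb1.

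Support for these periderm calls was uneven. DESeq2 called Fst but not the other two, with adjusted p = 0.336 for Inhba and 0.250 for Tgfb1, and Inhba was also not called with doublets kept (log2 -0.86). Without library as a term in the fit none of the 3 was called, with adjusted p = 0.0845 for Fst, 0.0663 for Inhba and 0.0663 for Tgfb1. The Cdkn2a and Gad2 sub-cluster belongs to the other ectoderm. Without it the within-library ratio of Inhba was 0.508 (0.162 to 1.21) and 0.421 (0.0855 to 1.26), and that of Fst 0.235 (0.048 to 0.698) and 0.219 (0.0449 to 0.649). Tgfb3 was at 0.927 and 2.61 in periderm against 3.90 and 6.76, a difference that did not pass the threshold (adjusted p = 0.114) with 1 and 2 UMIs of it in all periderm cells. Tgfb2 was at 122 and 84.9 in periderm against 79.3 and 115, so that the wild-type library had more and the Crect lacZ library less of it in periderm. Without that sub-cluster the Crect lacZ ratio was 1.02 (0.779 to 1.31). Acvr2a was 1.97-fold lower (1.34 to 2.91), just under the fold threshold. Of 40 other pathway genes tested, Bambi was higher and 5 were lower, with a median log2 difference of -0.20. Bambi, a decoy receptor without a kinase, was at 316 and 168 in periderm against 120 and 94.1 (2.15-fold, 1.78 to 2.61). Snai2, a repressor of epithelial adhesion genes, was 4.24-fold lower and Tagln 3.93-fold lower.

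The maxillary and nasal mesenchyme, the prominences that meet at the junction, differed in Fst, Inhba and Tgfb2. Fst was higher in the maxillary mesenchyme, Tgfb2 higher in the nasal mesenchyme, and Inhba higher in the maxillary mesenchyme, with a larger ratio in the wild-type library. The maxillary class had 979 and 675 cells and the nasal class 3884 and 3239. Under the alternatives the maxillary class ranged from 331 and 292 cells (mitochondrial limit 5%) to 1575 and 1038 (sub-cluster resolution 0.5). Mesenchyme sub-clusters with neither name, such as the one led by Slit2 and Scx described below, were in neither class. Slit2/Scx scored best as nasal (0.404), under the naming threshold of 0.5, and had Fst at 116 and 107 CPM. Shox2/Foxf2 scored 0.419 as maxillary and kept that name through 1 maxillary marker among its leading genes, which also include Fst. The Fst fold with Slit2/Scx counted as nasal was not computed. The maxillary class held 396 and 367 CPM of 5 maxillary markers against 100 and 74.0 in the nasal class. It also held 612 and 454 CPM of 5 nasal markers, more than of its own, against 1212 and 872 in the nasal class. These were 2 calls higher and 1 lower of 10 genes tested, where 1.79% of 14043 genes were called higher and 3.63% lower in maxillary cells, 5.42% in all. The median log2 difference was 0.02 over the 10 genes and -0.002 over all genes. Fst was at 69.2 and 58.9 CPM in maxillary against 11.4 and 15.9 in nasal cells, 4.85-fold higher (4.46 to 5.27). Without library as a term in the fit none of the 3 genes was called, with adjusted p = 0.0524 for Fst, 0.126 for Tgfb2 and 0.365 for Inhba. After thinning, 17.0% and 14.2% of maxillary cells had an Fst UMI against 2.99% and 3.92% of nasal cells and 0.441% and 0% of erythroid cells. Inhba, which encodes the activin subunit that follistatin binds, was at 40.8 and 30.1 against 12.9 and 21.4, 2.16-fold (1.97 to 2.37). The within-library ratio of Inhba was 3.16 (counting interval 2.84 to 3.52) in the wild-type and 1.40 (1.26 to 1.57) in the Crect lacZ library, and DESeq2 did not call it (adjusted p = 0.308).

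Tgfb2 was at 30.5 and 23.1 in maxillary against 69.1 and 50.7 in nasal cells, 2.17-fold lower (2.01 to 2.35). This value depended on how finely the mesenchyme was divided: at a sub-cluster resolution of 0.5 the log2 difference was -0.29 and was not called, beside -1.12 at 0.8. The other 7 genes were not called, with folds of 1.03 to 1.28. The receptors Tgfbr1, Tgfbr2, Tgfbr3 and Acvr2a were among these. Of 44 other pathway genes tested, 1 was called, Ldlrad4, an inhibitor of Smad2 and Smad3 that Tgf-beta itself induces, which was higher in maxillary cells.

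Within each tissue the 10 genes were then followed across sub-clusters. These are named by their 2 leading genes other than the 10 and the listed pathway genes. Of 14 ectoderm sub-clusters, 11 had 20 or more cells in each library, as had all 15 of the mesenchyme. Sub-clusters were drawn on these same cells, so their levels are a description without a test. The 10 genes and the listed pathway genes had been kept out of the genes used for clustering.

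In ectoderm the ligands Inhba, Tgfb2 and Tgfb1 and the inhibitor Fst all peaked in the same sub-cluster, led by Cdkn2a and Gad2, with 28 wild-type and 29 Crect lacZ cells. Inhba was at 141 and 104 CPM there against 8.84 and 8.98 in the rest of the ectoderm, and 42.9% and 55.2% of its cells had an Inhba UMI against 10.9% and 10.2% of the rest and 0.881% and 1.47% of erythroid cells. Tgfb2 was at 314 and 787 against 77.4 and 83.6, Fst at 77.8 and 356 against 11.2 and 17.0, and Tgfb1 at 68.8 and 111 against 17.0 and 13.8. With 2.96% and 3.95% of ectoderm cells, the sub-cluster held 24.2% and 33.7% of the ectoderm's Inhba UMIs and 12.2% and 47.9% of its Fst UMIs, from 1.97% and 4.21% of all ectoderm UMIs. This sub-cluster was singled out after its values were seen, and Fst, Inhba and Tgfb2 are among its own leading genes. Of the receptors, Tgfbr1 was at 86.8 and 63.4 against 51.5 and 55.2, Acvr2a was lower, at 23.9 and 15.8 against 28.8 and 32.8, and Tgfbr3 had no UMI, where 3 UMIs would have given 8.97 and 5.28 CPM.

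Several genes that Tgf-beta is known to induce stood higher in these cells as well. Cdkn2b, a cyclin-dependent kinase inhibitor, was at 98.7 and 148 against 12.0 and 8.36, Skil at 165 and 125 against 61.4 and 56.2, Smad7 at 144 and 120 against 73.3 and 71.7, and Pmepa1 at 26.9 and 49.3 against 9.62 and 9.91. These genes were singled out after their values were seen. Fn1 was at 41.9 and 54.6 against 68.0 and 72.2, and Tagln was higher in the wild-type library (83.8 against 24.5) and lower in the Crect lacZ library (35.2 against 56.5). Epcam stood at 497 and 445 in the sub-cluster and at 417 and 403 in the rest, and 6 mesenchyme markers summed to 98.7 and 118 beside 86.0 and 113 in the whole ectoderm. Cells were also grouped by Cdkn2a itself, a choice made after the data were seen that picks cells by the gene naming the sub-cluster and is no independent support. In the 58 and 36 ectoderm cells with a Cdkn2a UMI, Inhba was at 57.4 and 75.3 against 8.37 and 8.29 in the other ectoderm cells, Tgfb2 at 288 and 349 against 68.2 and 95.5, and Fst at 56.5 and 172 against 9.62 and 20.7. Tgfb1 was at 26.4 and 45.6 against 17.4 and 15.8 in these cells. Acvr2a, at 41.4 and 29.7 against 27.9 and 32.2, and Tgfbr1, at 62.1 and 44.6 against 51.5 and 56.4, did not keep the direction of the sub-cluster in both libraries. The cells with a Cdkn2a UMI had medians of 16630 and 21546 UMIs against 14797 and 16316.

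**Figure D3:**
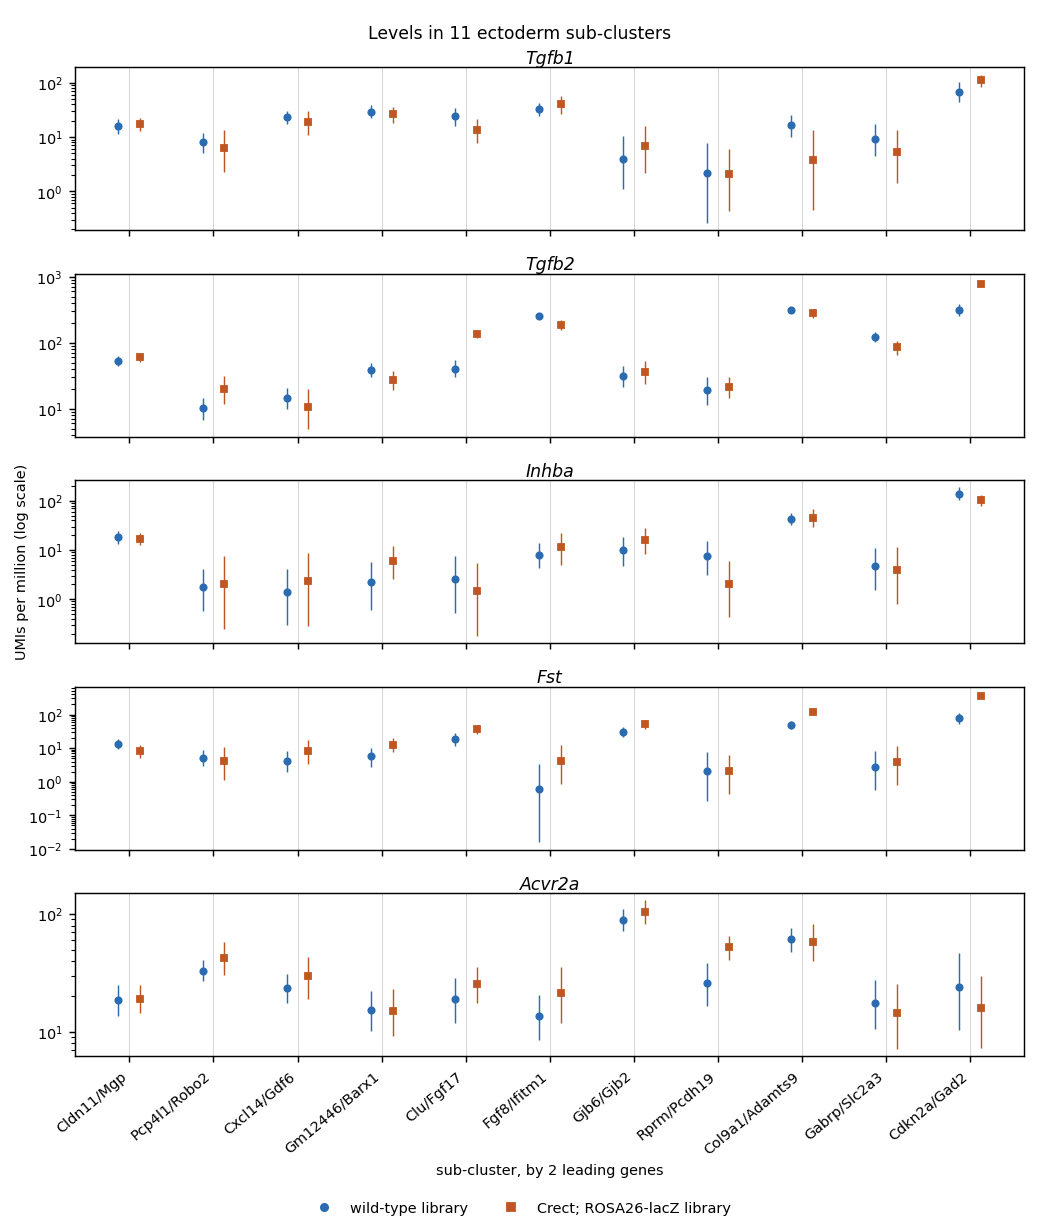
Levels of Tgfb1, Tgfb2, Inhba, Fst and Acvr2a in CPM (log axes) in 11 ectoderm sub-clusters with 20 or more cells in each library, with 95% Poisson bars, circles for the wild-type and squares for the Crect; ROSA26-lacZ library. The Cdkn2a/Gad2 sub-cluster is highest for Inhba (141 and 104), while Acvr2a peaks in the Gjb6/Gjb2 sub-cluster (90.0 and 105).

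Among the 11 larger sub-clusters, the second place for 3 of these genes was that led by Col9a1 and Adamts9, which also expresses the placode gene Dkk4. Tgfb2 was at 310 and 278 there, level with the Cdkn2a/Gad2 sub-cluster in the wild-type library and well under it in the Crect lacZ library. Inhba was at 43.0 and 45.2 and Fst at 48.7 and 122. Outside the 11, the sub-cluster led by Dlx6os1 and Dlk1 had 3 wild-type and 39 Crect lacZ cells. Tgfb2 was at 54.6 (2 UMIs) and 383 (236 UMIs) in it, so in the Crect lacZ library it lay above Col9a1/Adamts9. Tgfb2 was also high in the sub-cluster led by Fgf8 and Ifitm1, whose markers are oral, at 259 and 188, with Inhba at 8.09 and 11.4 and Fst at 0.622 and 4.28. At the low end, Tgfb2 was at 14.7 and 10.6 in the surface sub-cluster led by Cxcl14 and Gdf6 and at 10.1 and 19.8 in the one led by Pcp4l1 and Robo2, where Inhba was at 1.74 and 2.08.

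Across the 11 ectoderm sub-clusters the log2 levels of Inhba correlated with those of Tgfb2 (Pearson r 0.74 in the wild-type and 0.73 in the Crect lacZ library) and of Fst (0.67 and 0.76). These are descriptions over points that share a library. Between libraries the order of the sub-clusters was close for Inhba (r 0.93), Fst (0.93), Tgfb2 (0.91), Tgfb1 (0.88) and Acvr2a (0.88). It was looser for Tgfb3 (0.46), Tgfbr1 (0.34) and Tgfbi (0.20).

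The receptors had their own places in the ectoderm. Acvr2a peaked in the surface sub-cluster led by Gjb6 and Gjb2, at 90.0 and 105, followed by Col9a1/Adamts9 at 61.1 and 58.3, and it was low in the oral sub-clusters led by Gm12446 and Barx1 (15.3 and 15) and by Fgf8 and Ifitm1 (13.7 and 21.4) and in periderm (17.6 and 14.4). Fst was at 31.0 and 51.0 where Acvr2a peaked and Inhba at 10.0 and 16.1. Tgfbr1 lay between 40.4 and 86.8 in the wild-type and between 48.9 and 80.5 in the Crect lacZ library. Its highest level was in Cdkn2a/Gad2 in the wild-type and in Gjb6/Gjb2 in the Crect lacZ library. Tgfbr2, Tgfbr3, Tgfb3 and Tgfbi were low throughout, none above 12.2 CPM in any of the 11 sub-clusters of either library.

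In mesenchyme Tgfb2, Inhba and Fst followed different maps. Tgfb2 was highest in the sub-cluster led by Adra1b and Cxxc4, at 154 and 138, and lowest in the maxillary sub-cluster led by Osr2 and Sostdc1, at 12.2 and 11.8, with the libraries ordered alike (r 0.94 over 15 sub-clusters). Fst was highest in the sub-cluster led by Slit2 and the tendon factor gene Scx, at 116 and 107, where Tgfb2 was at 115 and 79.1 and Inhba at 66.6 and 40.0. It was also high in the maxillary sub-cluster led by Shox2 and Foxf2, at 71.0 and 71.1. In the nasal sub-cluster led by Emx2 and Smoc2 it was at 32.2 and 76.1, a ratio between libraries of 2.36 (2.0 to 2.79). Fst was at 0.846 and 2.44 in the nasal sub-cluster led by Gsc and Fam150b. Inhba and Fst correlated over the same sub-clusters (r 0.75 and 0.47). Inhba differed between libraries: it was at 44.7 and 116 in the nasal sub-cluster led by Aldh1a2 and Pex5l, at 97.5 and 41.9 in the chondrogenic one led by Sox9 and Flrt2, and at 62.3 and 25.6 in Osr2/Sostdc1. Its lowest level was in Gsc/Fam150b, at 3.22 and 3.14, and Fst was also low in Notch2/Rpgrip1, at 1.65 and 2.05.

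**Figure D4:**
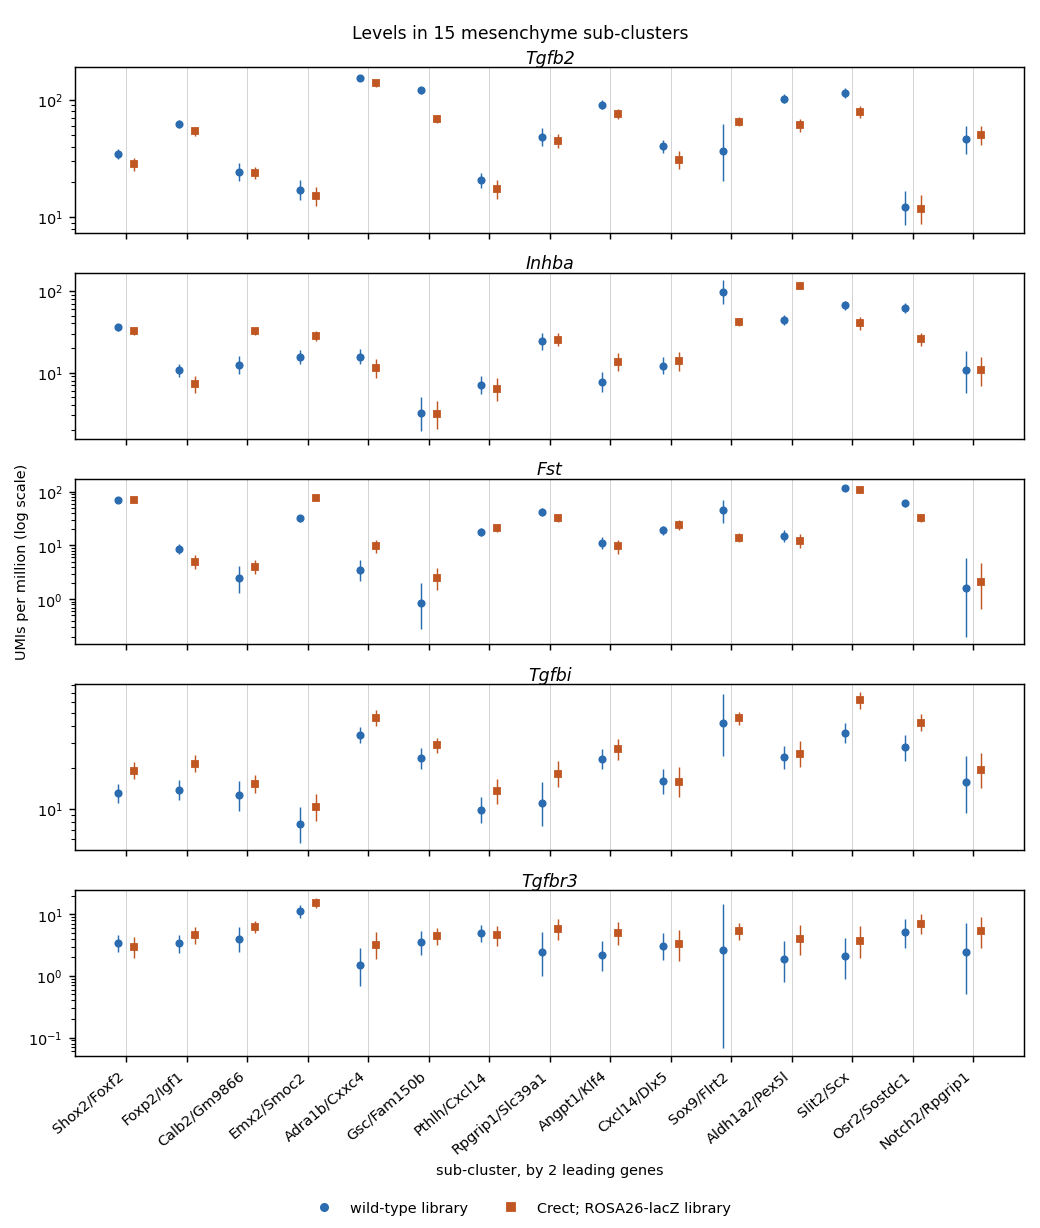
Levels of Tgfb2, Inhba, Fst, Tgfbi and Tgfbr3 in CPM (log axes) in 15 mesenchyme sub-clusters, with 95% Poisson bars, circles for the wild-type and squares for the Crect; ROSA26-lacZ library. Tgfb2 peaks in Adra1b/Cxxc4 (154 and 138), Fst in Slit2/Scx (116 and 107) and Tgfbr3 in Emx2/Smoc2 (11.2 and 15.3).

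The co-receptor Tgfbr3 was highest in the nasal sub-cluster led by Emx2 and Smoc2, at 11.2 and 15.3, against medians of 3.10 and 4.62 over the 15 sub-clusters. Tgfb2, the ligand it presents, was at 17.1 and 15.1 in those cells, near its lowest, and the log2 levels of the 2 genes correlated negatively over the 15 sub-clusters (r -0.77 and -0.54). Tgfbi was highest in Slit2/Scx (36.0 and 61.9), Sox9/Flrt2 (42.2 and 45.8) and Adra1b/Cxxc4 (34.6 and 46.0) and lowest in Emx2/Smoc2 (7.73 and 10.3), with r 0.95 between libraries, and its levels ran with those of Tgfb2 (r 0.51 and 0.57). Tgfb1 was highest in Sox9/Flrt2 in the wild-type library, at 21.1 from 8 UMIs against 12.1 in the Crect lacZ library, where Aldh1a2/Pex5l was highest at 13.7 (8.89 in the wild-type library). Tgfbr1 lay between 37.6 and 78.2 in the wild-type and between 45.7 and 62.4 in the Crect lacZ library. Between libraries over the sub-clusters, r was -0.10 for Tgfb3 and 0.03 for Acvr2a. The value for Tgfb3 includes Sox9/Flrt2, where the 29 wild-type cells had 0 UMIs of it and the Crect lacZ library had 12.7 CPM. A correlation without that sub-cluster was not computed.

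Between the libraries, Fst differed in ectoderm, where the ratio of the Crect lacZ to the wild-type level was 2.49 (2.11 to 2.95). There it was 1.38 (1.28 to 1.49) for Tgfb2, 1.76 (1.26 to 2.47) for Tgfb3 and 0.575 (0.379 to 0.858) for Tgfbi, and the intervals of the other 6 genes included 1. In the Cdkn2a/Gad2 sub-cluster that ratio was 4.57 (3.03 to 7.17) for Fst, 2.50 (2.02 to 3.13) for Tgfb2 and 0.738 (0.495 to 1.11) for Inhba. The makeup of the ectoderm also differed: Dlx6os1/Dlk1 had 3 wild-type and 39 Crect lacZ cells. It held 236 of the 1526 Tgfb2 UMIs of the Crect lacZ ectoderm, at 383 CPM, and Cdkn2a/Gad2 held 447. The Tgfb2 ratio of the ectoderm without these 2 sub-clusters was not tested. In mesenchyme, the ratio was 1.46 (1.26 to 1.68) for Tgfbr3, 1.42 (1.33 to 1.51) for Tgfbi, 0.779 (0.748 to 0.811) for Tgfb2 and 0.756 (0.686 to 0.833) for Acvr2a, and it lay between 0.916 and 1.16 for the other 6 genes. Genotype, pool, dissection and library cannot be told apart in these ratios.

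Genes with the most similar pattern were sought over 30 classes and sub-clusters, by the lower of the 2 libraries' Pearson correlations of log2 levels among 5964 genes. Fst was most like Plod2, a collagen lysyl hydroxylase (0.65), and its second was Inhba (0.64), the only case of a gene of the 10 among another's 3 nearest. Inhba was nearest to Arid5b (0.68), Tgfbi to Il11ra1 (0.81), Tgfb3 to the ephrin gene Efnb3 (0.79), Tgfbr2 to Tpst2 (0.79), Tgfb2 to Usp46 (0.67), Tgfb1 to Itm2b (0.70), Tgfbr3 to the mitotic gene Birc5 (0.67), Tgfbr1 to Ccdc50 (0.88) and Acvr2a to 1500011B03Rik (0.87).

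For position on mm10, per GENCODE vM21, no gene of the 10 overlapped another counted gene on its own strand. Tgfb2 overlapped Gm29491, Tgfb3 overlapped Ttll5 and Acvr2a overlapped Orc4, each on the opposite strand, and the sources used here do not say how the counting treated strand.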

How the data were processed

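The deposited values are raw UMI counts per gene and cell barcode, made by the authors with Cell Ranger 2.0 on mm10 per the submitters' processing notes, from 10x 3' v2 libraries per the labels' protocols. The sources used here do not give the strand setting or the barcode filter. The totals were 126638790 wild-type and 127765199 Crect lacZ UMIs. The genes, gene lists and comparisons were chosen with earlier results of these data known.

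Cells with 500 or more genes and at most 10% mitochondrial UMIs were kept. Scrublet (scanpy 1.11.5) at an expected doublet rate of 0.06 found 170 (2.15%) wild-type but only 2 Crect lacZ doublets by its own threshold, so the highest scores were removed in both libraries at a share that grew with the number of barcodes (504 and 369 cells). Counts were scaled to 10000 per cell and logged, 2000 variable genes without the 10 genes and the listed pathway genes gave 30 components, and cells were clustered with leidenalg 0.10.2 (15 neighbours, resolution 1.0; ectoderm and mesenchyme again with 20 components and resolution 0.8). Markers named the clusters; the scoring thresholds were set after seeing the data.

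Counts were summed per library and class, and each comparison of 4 sums was tested with edgeR 4.0.16 (R 4.3.3; TMM, filterByExpr, two-sided quasi-likelihood test, library as a term, 1 residual degree of freedom). Folds of the fit include TMM scaling and so differ somewhat from ratios of the levels. The classes were drawn on the cells tested and the library sums share a class definition, so p-values are too small. They rest mostly on a spread shared over all genes, not on how 1 gene varied between the 2 libraries. The shared spread counted as 13.0 degrees of freedom for ectoderm and 40.3 for periderm, beside the 1 residual. For endothelium and maxillary mesenchyme it was all that was used. In simulated data the test recovered 81%, 50%, 70% and 87% of 2-fold changes for ectoderm, periderm, endothelium and maxillary mesenchyme among 15126, 12144, 14462 and 14043 genes. Recovered here means an adjusted p under 0.05 in the right direction, without the fold threshold of a call. The simulation had 1 spread for all genes and no library effect, so these shares are not those that the calls would find. All 10 genes were named, and pathway genes by up to 3 called folds per direction with a mean level of 20 or more CPM. Alternatives were DESeq2 1.42.0, other scaling, filters, doublets, limits, resolution and single libraries, and, added after the data were seen, ectoderm without 1 sub-cluster. Of 56 listed pathway genes, 55 were in the table. RefSeq windows were found for 7 of the 10 genes.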

Additional observations from a re-analysis of the deposited data

Results flagged for a closer look

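For 2 results the libraries lay on opposite sides, each beyond its counting interval, with 1 library per genotype and the difference not tested. The ratio of the Fst level in ectoderm to that in mesenchyme was 0.432 (0.374 to 0.498) in the wild-type library and 1.18 (1.06 to 1.30) in the Crect lacZ library. The ratio of the Tgfb2 level in periderm to that in other ectoderm was 1.54 (1.28 to 1.85) in the wild-type and 0.739 (0.567 to 0.947) in the Crect lacZ library. Without the Cdkn2a/Gad2 sub-cluster, left out after the data were seen, the libraries no longer lay on opposite sides. The Fst ratio was then 0.387 (0.332 to 0.450) and 0.640 (0.555 to 0.735), and the Tgfb2 ratio 1.65 (1.37 to 1.98) and 1.02 (0.779 to 1.31). Other ectoderm sub-clusters were also higher in the Crect lacZ library. Tgfb2 was at 40.6 and 137 CPM in Clu/Fgf17, and Fst at 48.7 and 122 in Col9a1/Adamts9. Dlx6os1/Dlk1, with 3 and 39 cells, had Tgfb2 at 54.6 and 383 CPM, from 2 and 236 UMIs. Their part in the ratios was not tested.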

How the results depend on the processing

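Each comparison had 80 values for the 10 genes under 8 alternatives. Of these, 78 kept their state, called or not called, for ectoderm, 72 for periderm, 78 for endothelium and 75 for maxillary mesenchyme. A gene called in neither setting counted as kept even if its sign changed. No called value changed its sign. DESeq2 called 430 genes higher and 222 lower in periderm (1 of the 10 genes) and 164 and 242 in maxillary mesenchyme, where edgeR called 714, 582, 251 and 510. At a sub-cluster resolution of 0.5, 325 genes were lower in maxillary mesenchyme. With no replicate block, that is without library as a term, 446 and 273 genes were called in periderm, 23 and 49 in maxillary mesenchyme, and 3, 0 and 0 of the 10 genes in ectoderm, periderm and maxillary mesenchyme. The term pairs the 2 class sums of each library, since both come from the same pool, and it leaves 1 residual degree of freedom. Without the Cdkn2a/Gad2 sub-cluster, an alternative added after the data were seen, the Crect lacZ ratios of Fst in ectoderm to mesenchyme (0.640) and of Tgfb2 in periderm to other ectoderm (1.02, interval 0.779 to 1.31) crossed 1. Past 2-fold in a single library were 5 to 6 of the 10 genes for ectoderm, 3 to 5 for periderm, 6 for endothelium and 2 to 3 for maxillary mesenchyme. Without thinning, 57 of 60 shares of cells with a UMI left their interval. Low levels (Tgfbr2, Tgfbr3 and Tgfb3 in ectoderm) rest on 28 to 88 UMIs per library. Those of Fst, Inhba and Tgfb1 in periderm rest on 3 to 10.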

Other observations

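Rare cells not used in any comparison had their own profile of these genes. Macrophages, 30 and 28 cells, had Tgfb1 at 176 and 173 CPM, Tgfbr1 at 178 and 82.7 and Tgfbr2 at 57 and 35.3. Fst had no UMI in them, where 3 UMIs would have given 6.84 and 3.65 CPM. Megakaryocytes, 44 and 14 cells, had Tgfb1 at 72.9 and 62.8, from 23 and 6 UMIs, and mesenchyme markers at 558 and 534 CPM. Crest glia, 28 and 22 cells, had Tgfbr2 at 18.1 and 10.9 from 10 and 7 UMIs and Tgfb1 at 5.42 and 3.12. Neurons were 13 in the Crect lacZ library, with 42 UMIs of Tgfbr1 or 176 CPM, and 1 in the wild-type library. None of these levels was tested.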
